A study of Homo sapiens with 9 samples.

Results

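The HOX genes of the 4 human clusters were examined in T47D-MTVL cells, a progestin-responsive luminal breast cancer line with an integrated reporter under the promoter of mouse mammary tumour virus. Members were the genes of the deposited H2A table whose HGNC symbol is HOX followed by A, B, C or D and a paralog number. There were 30 of them among the 20318 genes of the table: 10 in HOXA on chromosome 7, 6 in HOXB on chromosome 17, 7 in HOXC on chromosome 12 and 7 in HOXD on chromosome 2. A further 9 HOX genes (HOXA13, HOXB1, HOXB2, HOXB3, HOXB4, HOXC8, HOXC12, HOXD9 and HOXD11) are in the table by Ensembl identifier only and are not members by this rule.

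Chromatin immunoprecipitation followed by sequencing (ChIP-seq) measured where a protein lies on the genome. Histone H2A was profiled in cells treated for 30 min or 60 min with the synthetic progestin R5020 at 10 nM and in unstimulated cells (0 min). HP1γ, LSD1 and BPTF were each profiled at 30 min and in unstimulated cells. All cells had been kept in charcoal-treated serum and then without serum before the hormone, so the unstimulated cells share that starvation. Each of the 9 combinations of antibody and time was 1 library, so no difference below has a replicate check and none was tested. Errors given are counting errors only and do not cover the spread between cultures. In a population of cells, a change in few cells and a smaller change in all cells cannot be told apart.

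HOX genes encode homeodomain transcription factors that give cells their position along the body axis, and the order of the genes within a cluster matches the order in which they act from head to tail. Polycomb complexes hold the clusters silent and Trithorax complexes, which trimethylate lysine 4 of histone H3, keep them active. BPTF is the subunit of the chromatin remodelling complex NURF that reads this lysine mark through a PHD finger, and it is needed for normal Hox gene expression in Xenopus embryos. HP1γ binds methylated lysine 9 of histone H3, and LSD1 is a demethylase that works in the CoREST repressor complex. HOTAIR, a long non-coding RNA encoded in the HOXC cluster, is known to bind a Polycomb complex and LSD1.

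The positions on which the comparison of BPTF, HP1γ and LSD1 turns are shown first. The sequences below are the central 300 bases of each position, read 5′ to 3′ from the + strand of GRCh37, and capitals mark CG dinucleotides. The first 3 are all the recruited BPTF positions found within the HOX clusters, which lie at HOXB5 and HOXB6, in HOXC13 and in the shared span of HOXC4, HOXC5 and HOXC6. The next 3 are the neighbouring displaced BPTF, HP1γ (0 min) and LSD1 (0 min) positions between HOXC11 and HOXC10. The last is the HP1γ (30 min) position between HOXA10 and HOXA11, which lies beside an LSD1 position of the same time.
BPTF recruited, HOXB5 and HOXB6, chr17:46671432-46671731: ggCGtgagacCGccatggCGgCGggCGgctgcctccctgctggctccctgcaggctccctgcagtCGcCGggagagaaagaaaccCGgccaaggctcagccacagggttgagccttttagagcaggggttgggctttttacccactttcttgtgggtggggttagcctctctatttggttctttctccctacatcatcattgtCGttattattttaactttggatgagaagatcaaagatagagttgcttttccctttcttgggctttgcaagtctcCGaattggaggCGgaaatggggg
BPTF recruited, HOXC13, chr12:54334437-54334736: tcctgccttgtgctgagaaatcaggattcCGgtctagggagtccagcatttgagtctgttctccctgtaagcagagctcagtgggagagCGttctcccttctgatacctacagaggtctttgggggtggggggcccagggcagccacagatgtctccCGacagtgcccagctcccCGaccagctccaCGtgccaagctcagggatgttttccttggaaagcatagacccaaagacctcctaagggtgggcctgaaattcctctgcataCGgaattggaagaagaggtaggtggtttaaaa
BPTF recruited, HOXC4 to HOXC6, chr12:54412224-54412523: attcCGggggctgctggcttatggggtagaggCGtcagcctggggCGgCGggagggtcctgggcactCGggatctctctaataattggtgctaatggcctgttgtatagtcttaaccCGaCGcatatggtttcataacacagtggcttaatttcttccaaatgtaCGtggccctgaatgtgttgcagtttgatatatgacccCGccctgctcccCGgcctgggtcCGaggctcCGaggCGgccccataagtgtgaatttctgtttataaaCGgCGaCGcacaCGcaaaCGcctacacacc
BPTF displaced, HOXC11 to HOXC10, chr12:54372991-54373290: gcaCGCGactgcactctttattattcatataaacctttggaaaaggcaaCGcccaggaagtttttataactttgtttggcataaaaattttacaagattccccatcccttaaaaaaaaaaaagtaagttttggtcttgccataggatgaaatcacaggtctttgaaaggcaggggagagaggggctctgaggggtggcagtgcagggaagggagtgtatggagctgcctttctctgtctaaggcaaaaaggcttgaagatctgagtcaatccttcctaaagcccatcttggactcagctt
HP1γ at 0 min, HOXC11 to HOXC10, chr12:54374031-54374330: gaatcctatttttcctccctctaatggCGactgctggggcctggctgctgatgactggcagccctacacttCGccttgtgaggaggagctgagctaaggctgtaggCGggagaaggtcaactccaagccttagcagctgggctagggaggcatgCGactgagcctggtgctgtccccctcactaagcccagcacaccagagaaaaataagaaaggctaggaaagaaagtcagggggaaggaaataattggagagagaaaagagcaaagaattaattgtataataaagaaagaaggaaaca
LSD1 at 0 min, HOXC11 to HOXC10, chr12:54374732-54375031: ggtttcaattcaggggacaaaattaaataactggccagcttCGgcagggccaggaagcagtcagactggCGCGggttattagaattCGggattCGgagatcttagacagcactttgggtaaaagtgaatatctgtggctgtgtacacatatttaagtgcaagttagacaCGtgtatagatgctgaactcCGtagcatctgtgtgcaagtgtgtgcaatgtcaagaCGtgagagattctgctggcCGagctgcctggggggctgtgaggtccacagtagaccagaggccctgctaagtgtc
HP1γ at 30 min, HOXA10 to HOXA11, chr7:27220184-27220483: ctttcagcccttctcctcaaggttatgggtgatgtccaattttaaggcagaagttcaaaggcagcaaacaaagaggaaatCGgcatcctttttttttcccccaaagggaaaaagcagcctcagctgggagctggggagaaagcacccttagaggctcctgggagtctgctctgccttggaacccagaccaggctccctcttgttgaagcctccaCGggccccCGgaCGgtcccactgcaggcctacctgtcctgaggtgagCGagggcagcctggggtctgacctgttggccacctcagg

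The recruited BPTF windows in the clusters held 11 CG dinucleotides at HOXB5 and HOXB6, 6 in HOXC13 and 18 in the HOXC4 to HOXC6 span, against a median of 3 over the 300-base centres of all 1848 recruited positions. The displaced window held 3, against a median of 1 over all 5546 displaced positions. The GC content of the recruited windows was 54.0% at HOXB5 and HOXB6, 54.7% in HOXC13 and 55.0% in the HOXC4 to HOXC6 span, and that of the displaced window was 43.3%. A hormone receptor half-site, TGTTCT on either strand (AGAACA on the other), was found 1 time among these 4 BPTF windows, in HOXC13. Of all recruited windows 27.8% held it and of all displaced windows 25.8%.

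Promoters are shown for the HOXD genes at the ends of the H2A change described next: HOXD4 and HOXD12, which had the lowest values at 30 min, and HOXD13, which had the highest. They are RefSeq sequences of GRCh38.p14, + strand, 300 bases around the gene start, with CG dinucleotides in capitals.
HOXD4 promoter, chr2:176151300-176151599: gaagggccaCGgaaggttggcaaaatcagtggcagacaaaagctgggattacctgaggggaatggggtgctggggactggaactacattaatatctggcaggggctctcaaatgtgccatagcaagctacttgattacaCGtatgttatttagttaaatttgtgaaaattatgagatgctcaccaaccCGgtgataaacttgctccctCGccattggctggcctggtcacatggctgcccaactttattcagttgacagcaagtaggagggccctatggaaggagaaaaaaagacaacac
HOXD12 promoter, chr2:176099545-176099844: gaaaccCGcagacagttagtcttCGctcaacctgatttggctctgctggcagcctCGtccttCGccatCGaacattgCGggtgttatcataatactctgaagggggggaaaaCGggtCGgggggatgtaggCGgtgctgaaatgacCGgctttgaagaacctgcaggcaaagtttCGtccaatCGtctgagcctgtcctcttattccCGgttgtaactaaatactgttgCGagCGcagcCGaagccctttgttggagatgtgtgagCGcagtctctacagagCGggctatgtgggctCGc
HOXD13 promoter, chr2:176092471-176092770: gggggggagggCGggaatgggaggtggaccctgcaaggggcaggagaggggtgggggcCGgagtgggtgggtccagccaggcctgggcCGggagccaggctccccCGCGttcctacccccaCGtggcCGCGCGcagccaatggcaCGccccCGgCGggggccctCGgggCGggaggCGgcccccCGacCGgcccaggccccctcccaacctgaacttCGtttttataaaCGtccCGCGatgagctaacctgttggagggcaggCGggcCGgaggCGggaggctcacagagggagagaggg

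The HOXD4 promoter was 47.3% GC with 4 CG dinucleotides, the HOXD12 promoter 54.3% with 19 and the HOXD13 promoter 74.0% with 24. The median of 35116 RefSeq promoters was 58.7% GC and 14 CG dinucleotides. HOXD4 and HOXD12 thus have promoters of unlike CG content, while their gene spans, over which H2A was read, are 59.6% and 59.7% GC. Whether promoter CG content bears on the H2A change was not tested. RefSeq promoters matched 17 of the 30 member symbols, with 24 promoters in all. The half-site was not found in these 3 windows. HOXC4 and HOXC5 share 1 window, and of the 23 distinct member windows 4 held the half-site (17.4%), against 14.8% of all distinct windows.

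H2A over the HOX genes was lower at 30 min of R5020 than in unstimulated cells at 29 of 30 members, and all 30 passed the filter on low values (a mean of at least 0.1 RPKM, the reads of a gene scaled by its length and by the depth of the library). The same direction was seen at 71.3% of the 19709 genes tested, so most of the genome's genes read lower in that library. The median log2 change of the members was -0.26, against -0.14 over all genes tested. On the log2 scale of RPKM plus 0.05, HOXD4 and HOXD12 passed -0.5, and 1.99% of all genes did. No member passed +0.5, as 0.345% of all genes did. HOXD13 was the exception to the direction, and with all genes' median set to 0 HOXA2, HOXC13 and HOXD10 were not lower either, which left 86.7% of members lower. RPKM is compared here within a gene only, since the deposited value also follows the number of annotated transcripts (Spearman 0.83 over all genes).

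**Figure D1:**
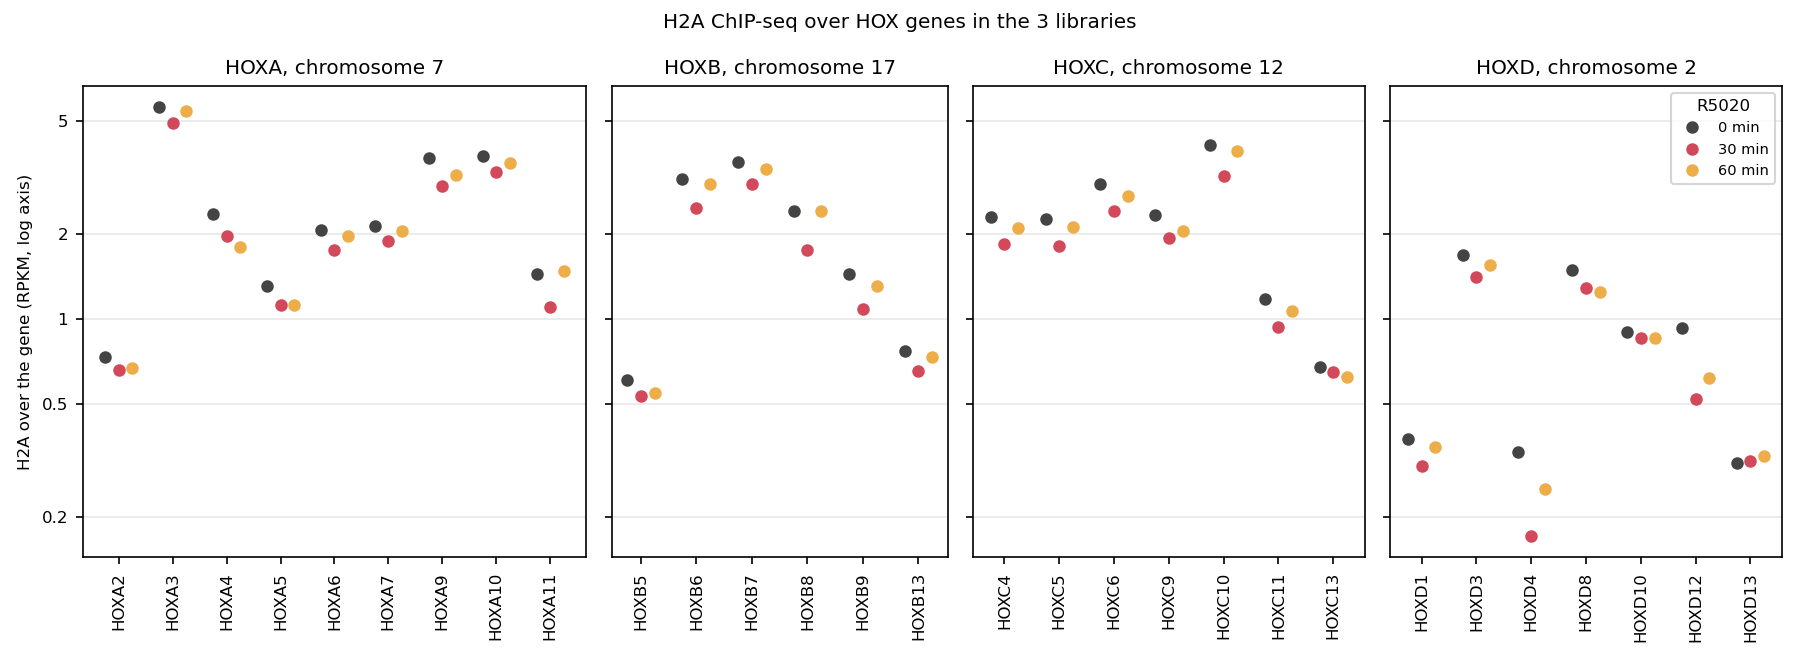
H2A over 29 of the 30 HOX genes in RPKM (log axis), 1 point per library at 0, 30 and 60 min of R5020, in paralog order within each cluster. The 30 min point is the lowest of the 3 at 24 of the genes drawn, and levels are to be compared within a gene only.

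HOXD genes had both ends of the range. HOXD4, a central patterning gene, had 0.340, 0.172 and 0.251 RPKM at 0, 30 and 60 min. HOXD12, a limb and posterior gene, had 0.933, 0.522 and 0.620 RPKM. Both stood lowest at 30 min and still read below the unstimulated level at 60 min. The log2 change at 60 min was -0.37 for HOXD4 (counting SE 0.23) and -0.55 for HOXD12 (counting SE 0.21). For HOXD4 this is within 2 counting errors of no change, so a return to the unstimulated level cannot be told from its lack. The log2 change at 30 min was -0.81 for HOXD4 (counting SE 0.24) and -0.78 for HOXD12 (counting SE 0.20). HOXD4 rests on few reads, 58.1 at 30 min against 95.9 at 0 min, and its span lies inside that of HOXD3. Only 0.117% of the genes tested lay below HOXD4 at 30 min, and 0.147% lay below HOXD12.

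The other HOXD genes stayed closer together. HOXD13, the most posterior gene of its cluster, had 0.312, 0.315 and 0.328 RPKM at 0, 30 and 60 min. HOXD10 had 0.900, 0.858 and 0.857 RPKM, and HOXD1, the most anterior, had 0.379, 0.304 and 0.354 RPKM. The log2 changes at 30 min were 0.01 for HOXD13 (counting SE 0.17), -0.07 for HOXD10 (0.09) and -0.28 for HOXD1 (0.18), none of them beyond 2 counting errors. The log2 change at 30 min was -0.25 for HOXD3 and -0.20 for HOXD8. HOXD8 had 1.490, 1.291 and 1.243 RPKM at 0, 30 and 60 min and was lowest at 60 min, as was HOXD10 by a margin of 0.001 RPKM.

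In HOXB, all 6 members read lower at both 30 and 60 min than at 0 min, with 60 min in between at each. HOXB8 and HOXB9 lie within the span of HOXB7 and share reads with it, so the 6 values are not independent. HOXB8 had 2.410, 1.751 and 2.402 RPKM at 0, 30 and 60 min. Its change of -0.45 at 30 min (counting SE 0.14) was the lowest outside HOXD, and at 60 min it was back at the unstimulated level, with a change of -0.005. HOXB9 had 1.437, 1.085 and 1.309 RPKM, and HOXB6 had 3.129, 2.468 and 2.985 RPKM. HOXB5 had 0.609, 0.535 and 0.550 RPKM and the smallest change of its cluster at 30 min, -0.17 (counting SE 0.13). HOXB13, known for its part in the prostate and as a marker in breast cancer, had 0.769, 0.657 and 0.735 RPKM, and HOXB7 had 3.588, 2.985 and 3.387 RPKM.

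In HOXC, 7 of 7 members read lower at 30 min, and 6 of them lay between -0.36 and -0.26. HOXC10 had 4.126, 3.204 and 3.910 RPKM at 0, 30 and 60 min and the lowest log2 change of the cluster, -0.36 (counting SE 0.10). HOXC5, whose long annotated span overlaps 5 other HOX genes and gives it the most reads, had 2.262, 1.815 and 2.109 RPKM and a change of -0.31 (counting SE 0.02). HOXC13 was the exception, with 0.679, 0.649 and 0.623 RPKM, a change of -0.06 at 30 min (counting SE 0.07). The values of HOXC4, HOXC5, HOXC6, HOXC9 and HOXC10 are not independent, because their spans overlap and share reads. HOXC4 had 2.300, 1.841 and 2.101 RPKM, HOXC6 had 2.986, 2.406 and 2.721 RPKM, and HOXC9 had 2.331, 1.934 and 2.053 RPKM. HOXC11, which shares no span with another member, had 1.173, 0.940 and 1.068 RPKM and a change of -0.30 at 30 min (counting SE 0.11).

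In HOXA, 10 of 10 members read lower at 30 min, between -0.37 and -0.14. HOXA4 lies within the span of HOXA3, so the values of these genes share reads. HOXA11, a gene of the posterior axis and of the reproductive tract, had 1.445, 1.105 and 1.476 RPKM at 0, 30 and 60 min. Its log2 change was -0.37 at 30 min (counting SE 0.11) and 0.03 at 60 min (0.11), so it was lowest at 30 min and at its unstimulated level by 60 min. HOXA2, needed for the second pharyngeal arch, had 0.737, 0.663 and 0.674 RPKM and the smallest change, -0.14 (counting SE 0.17). HOXA4 was lowest at 60 min, with 2.350, 1.957 and 1.791 RPKM, and its change was -0.26 at 30 min (0.13) and -0.38 at 60 min (0.14). HOXA9 had 3.708, 2.940 and 3.227 RPKM, and HOXA10 had 3.753, 3.299 and 3.542 RPKM. Both lay lowest at 30 min, with 60 min in between. HOXA3 had 5.580, 4.905 and 5.407 RPKM and HOXA5 had 1.304, 1.122 and 1.124 RPKM. HOXA6 had 2.056, 1.748 and 1.960 RPKM and HOXA7 had 2.131, 1.880 and 2.044 RPKM.

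**Figure D2:**
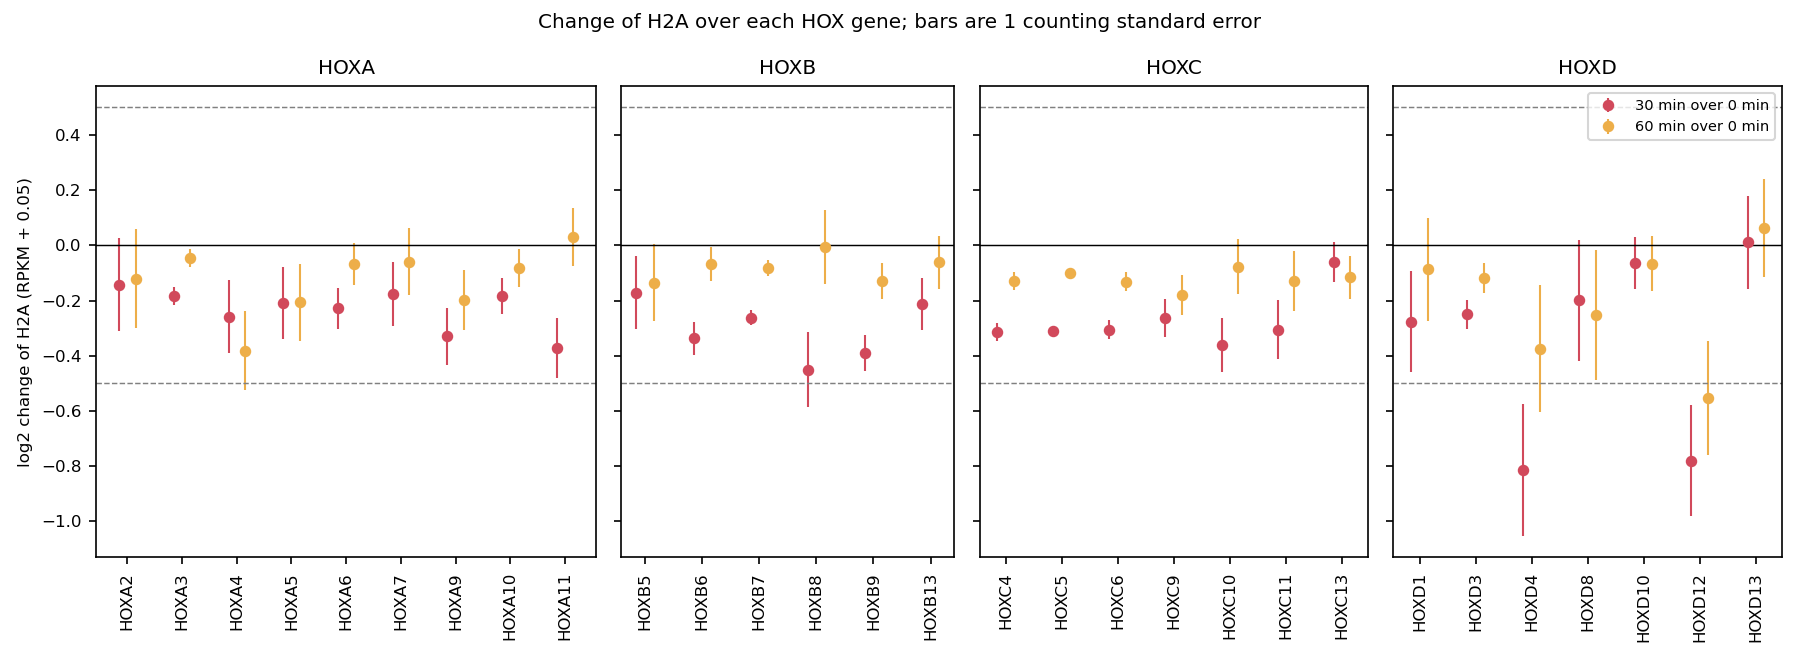
Change of H2A over the same 29 HOX genes at 30 min (red) and 60 min (yellow) over 0 min, on the log2 scale of RPKM plus 0.05, with bars of 1 counting SE and dashed lines at -0.5 and 0.5. HOXD4 and HOXD12 lie below -0.5 at 30 min, HOXD12 does so at 60 min, and HOXD13 lies at 0.01 and 0.06.

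The 4 clusters had median log2 changes at 30 min of -0.20 (HOXA), -0.30 (HOXB), -0.31 (HOXC) and -0.25 (HOXD). By position along the body axis, the median was -0.19 over the 5 anterior members (paralogs 1 to 3), -0.26 over the 13 central members (4 to 8) and -0.28 over the 12 posterior members (9 to 13). These medians differ by less than the range within each group, which ran from -0.28 to -0.14, from -0.81 to -0.17 and from -0.78 to 0.01 in the same order. The median GC content of the groups also rose in that order, at 48.0%, 54.3% and 55.6%. With the trend on GC content described below taken off, their median changes were 0.024, 0.024 and 0.021. The 9 HOX genes listed by identifier had a median of -0.31, all lower at 30 min, with HOXB1 lowest at -0.39 and HOXB2 at -0.04.

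At 60 min, 28 of 30 members read lower than at 0 min, beside 61.2% of all genes. The median log2 change of the members was -0.11, against -0.03 over all genes tested. HOXD12 alone passed -0.5, at -0.55 (counting SE 0.21), as 0.639% of all genes did, and no member passed +0.5 (0.249% of all genes). HOXD13 and HOXA11 read higher than at 0 min, by 0.06 and 0.03. Between 60 and 30 min, 4 members read lower at 60 min (HOXA4, HOXC13, HOXD8 and HOXD10), beside 28.3% of all genes, and 26 read higher. The median of that change was 0.15, against 0.09 over all genes, and it reached 0.45 at HOXB8, 0.44 at HOXD4 and 0.40 at HOXA11. No member passed +0.5 (0.756% of all genes) or -0.5 (0.294%) in that comparison. The comparisons over 0 min share the 0 min library.

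Across the 3 libraries, 0 min was the highest at 28 of 30 members, against 56.8% of all genes. The 30 min library was the lowest at 25 members, against 66.1% of all genes, and 24 members had 60 min in between, against 51.6% of all genes. HOXA4, HOXC13, HOXD8 and HOXD10 were lowest at 60 min. Their log2 changes from 30 to 60 min were -0.12 (counting SE 0.14), -0.05 (0.08), -0.05 (0.23) and -0.002 (0.10) in the same order. Each is smaller than its counting SE.

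Counting error sets how many of these changes can be seen at this depth. Library depths recovered from the steps of the RPKM values, for 0, 30 and 60 min of hormone, were 140.74, 168.58 and 133.02 megareads. With each gene's reads divided by its annotated transcripts, 19 of 30 members lay more than 2 counting errors from no change at 30 min and 9 of 30 did at 60 min. Of all genes with a transcript number, 64% did so at 30 min and 27.4% at 60 min. With the reads undivided the counts were 23 members at 30 min (79.4% of all genes) and 15 at 60 min (57.5%). The members' shares are near those of all genes at 30 min.

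HOX genes are rich in G and C, and the H2A change moved with base composition over the whole table. The members' GC content had a median of 54.4% and reached 59.7%, and all 30 lay above the median of 45.4% over all genes tested. Spearman's correlation of GC content with the change at 30 min was -0.85 across the 19709 genes and -0.62 across the 30 members, which share libraries and in part reads. At 60 min it was -0.68 across all genes and -0.30 across the members. After the smooth trend on GC content over all genes was taken off, 12 of 30 members were lower and 18 higher at 30 min, beside 52.5% of all genes lower. The members' median was then 0.024, beside -0.26 without that step.

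**Figure D3:**
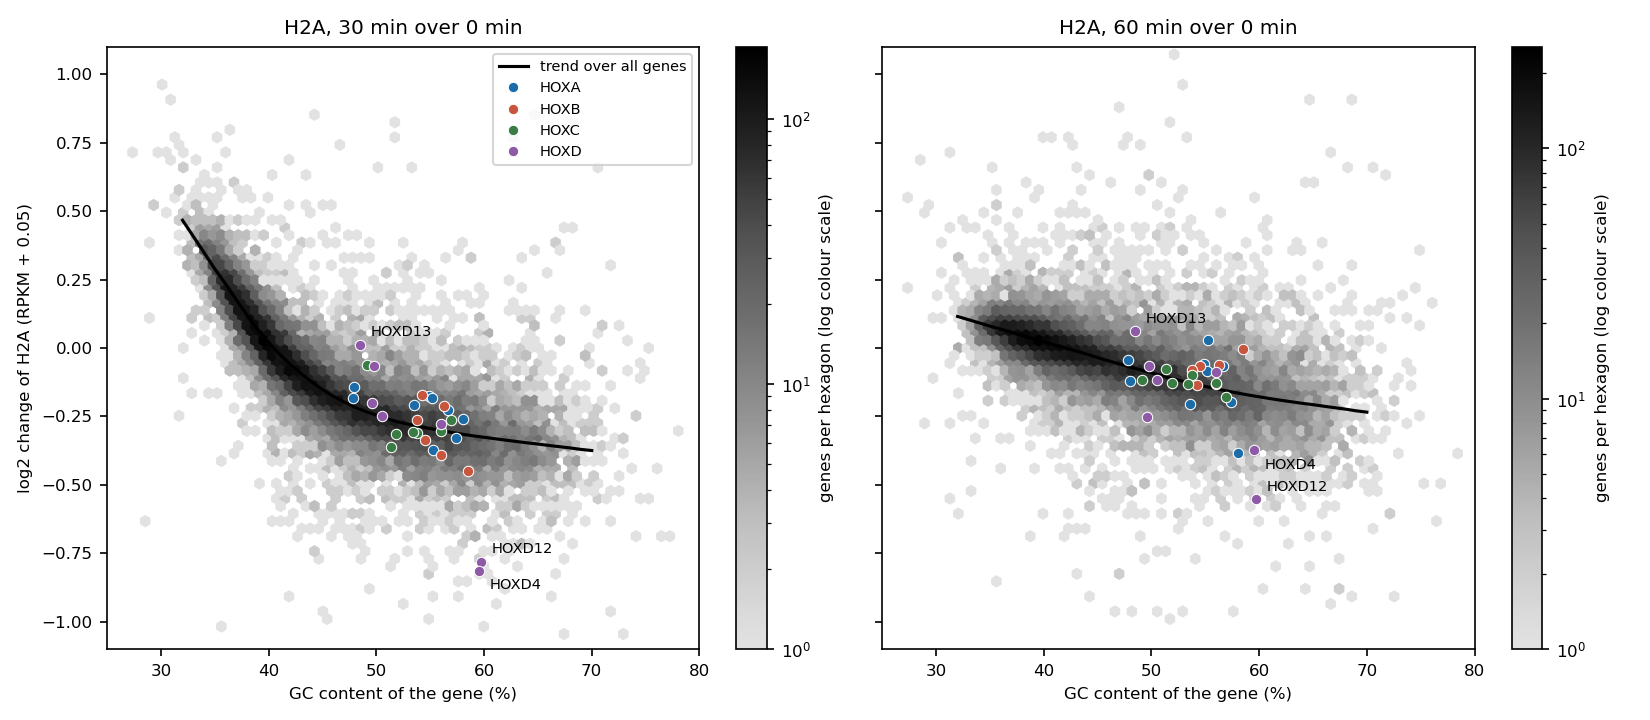
Log2 change of H2A at 30 min (left) and 60 min (right) over 0 min against the GC content of the gene in %, with all genes as grey hexagons, the trend over all genes as a line and 29 HOX genes as coloured points. Most HOX genes lie along the trend, and HOXD4 and HOXD12 lie below it in both panels. At 60 min HOXD4 lies 0.20 below it (at -0.20, counting SE 0.23), no further than HOXA4 (at -0.22).

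HOXD4 and HOXD12 were the GC-richest HOXD members, at 59.6% and 59.7%, and remained the lowest members at 30 min with the trend taken off, at -0.49 and -0.46. Neither passed -0.5 then, which 0.254% of all genes did, and no member passed +0.5 (0.365% of all genes). HOXD13 was the highest member, at 0.24, and HOXC13 stood at 0.17. Members beyond 2 counting errors were 3 at 30 min (HOXD4, HOXD12 and HOXC13) and 0 at 60 min, with the reads divided by transcripts, beside 13% of all genes at 30 min and 6.44% at 60 min. With the reads undivided they were 8 at 30 min and 6 at 60 min, beside 45.7% and 38.5% of all genes. The 4 clusters had medians of 0.06 (HOXA), -0.01 (HOXB), -0.02 (HOXC) and 0.02 (HOXD). At 60 min, 14 members were lower and 16 higher, beside 50.4% of all genes lower, with a median of 0.019 and with HOXD12 lowest at -0.38 and HOXA11 highest at 0.17. No member passed -0.5 (0.294% of all genes) or +0.5 (0.381%) at 60 min. Between 60 and 30 min, 16 were lower and 14 higher, beside 48.4% of all genes lower, and no member passed -0.5 (0.31% of all genes) or +0.5 (0.335%). Whether GC content acts through the library preparation or through the chromatin was not tested.

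Other gene lists were set beside the HOX genes. Of 44 other homeobox genes, 43 read lower at 30 min, with a median of -0.23, and 3 passed -0.5 (TLX2 at -0.54, OTX1 at -0.51 and NKX2-1 at -0.51). Their median was 0.05 with the GC trend taken off. The 6 ParaHox and CDX genes, the sister family of the clusters, had a median of -0.25, with 5 lower. Of 9 TALE genes, which encode the PBX and MEIS partners of HOX proteins, 6 were lower with a median of -0.13. Of 23 Polycomb genes 16 were lower, with a median of -0.11, and of 11 Trithorax and H3K27 demethylase genes 8 were lower, with a median of -0.09. No gene of those 4 lists passed 0.5 either way at 30 min. Their median GC content was 57.1% (ParaHox and CDX), 47.2% (TALE), 43.9% (Polycomb) and 42.8% (Trithorax and H3K27 demethylase). Once corrected for GC content, the median changes of these lists at 30 min were 0.013, -0.003, -0.014 and -0.015 in the same order.

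The genes that border the clusters lay on both sides of no change. Of 12 EVX and flanking genes 7 were lower at 30 min, with a median of -0.05. EVX1, a homeobox gene at the posterior end of HOXA, had 3.908, 2.705 and 3.481 RPKM at 0, 30 and 60 min and a change of -0.52 at 30 min. EVX2 beside HOXD had a log2 change of -0.05. EVX1 is 62.0% GC and EVX2 is 53.4% GC. Once corrected for GC content, EVX1 stood at -0.19 and EVX2 at 0.23. SKAP2 beside HOXA, LNPK and MTX2 beside HOXD were higher at 30 min, by 0.25, 0.35 and 0.29. These 3 have GC contents of 35.02 to 35.88%, and with the trend taken off they stood at 0.006, 0.07 and -0.003.

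The peak lists were read over 4 windows, each from the first start to the last end of the members of a cluster plus 5 kb on each side, in GRCh37. The HOXB window is chr17:46663619-46811540, the HOXC window chr12:54327535-54454111 and the HOXD window chr2:176952619-177060688. HP1γ and LSD1 peaks were called by the authors in each library, each with a score used here within its list only, and BPTF came as lists of positions recruited and displaced by hormone. HP1γ had 8 peaks in the 4 windows at 30 min and 11 at 0 min, LSD1 had 3 at 30 min and 8 at 0 min, and BPTF had 3 recruited positions and 1 displaced. The lists as a whole were also shorter at 30 min, with 23836 HP1γ peaks at 30 min and 31845 at 0 min, and 20495 LSD1 peaks at 30 min and 34990 at 0 min. The depth of these libraries is unknown.

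**Figure D4:**
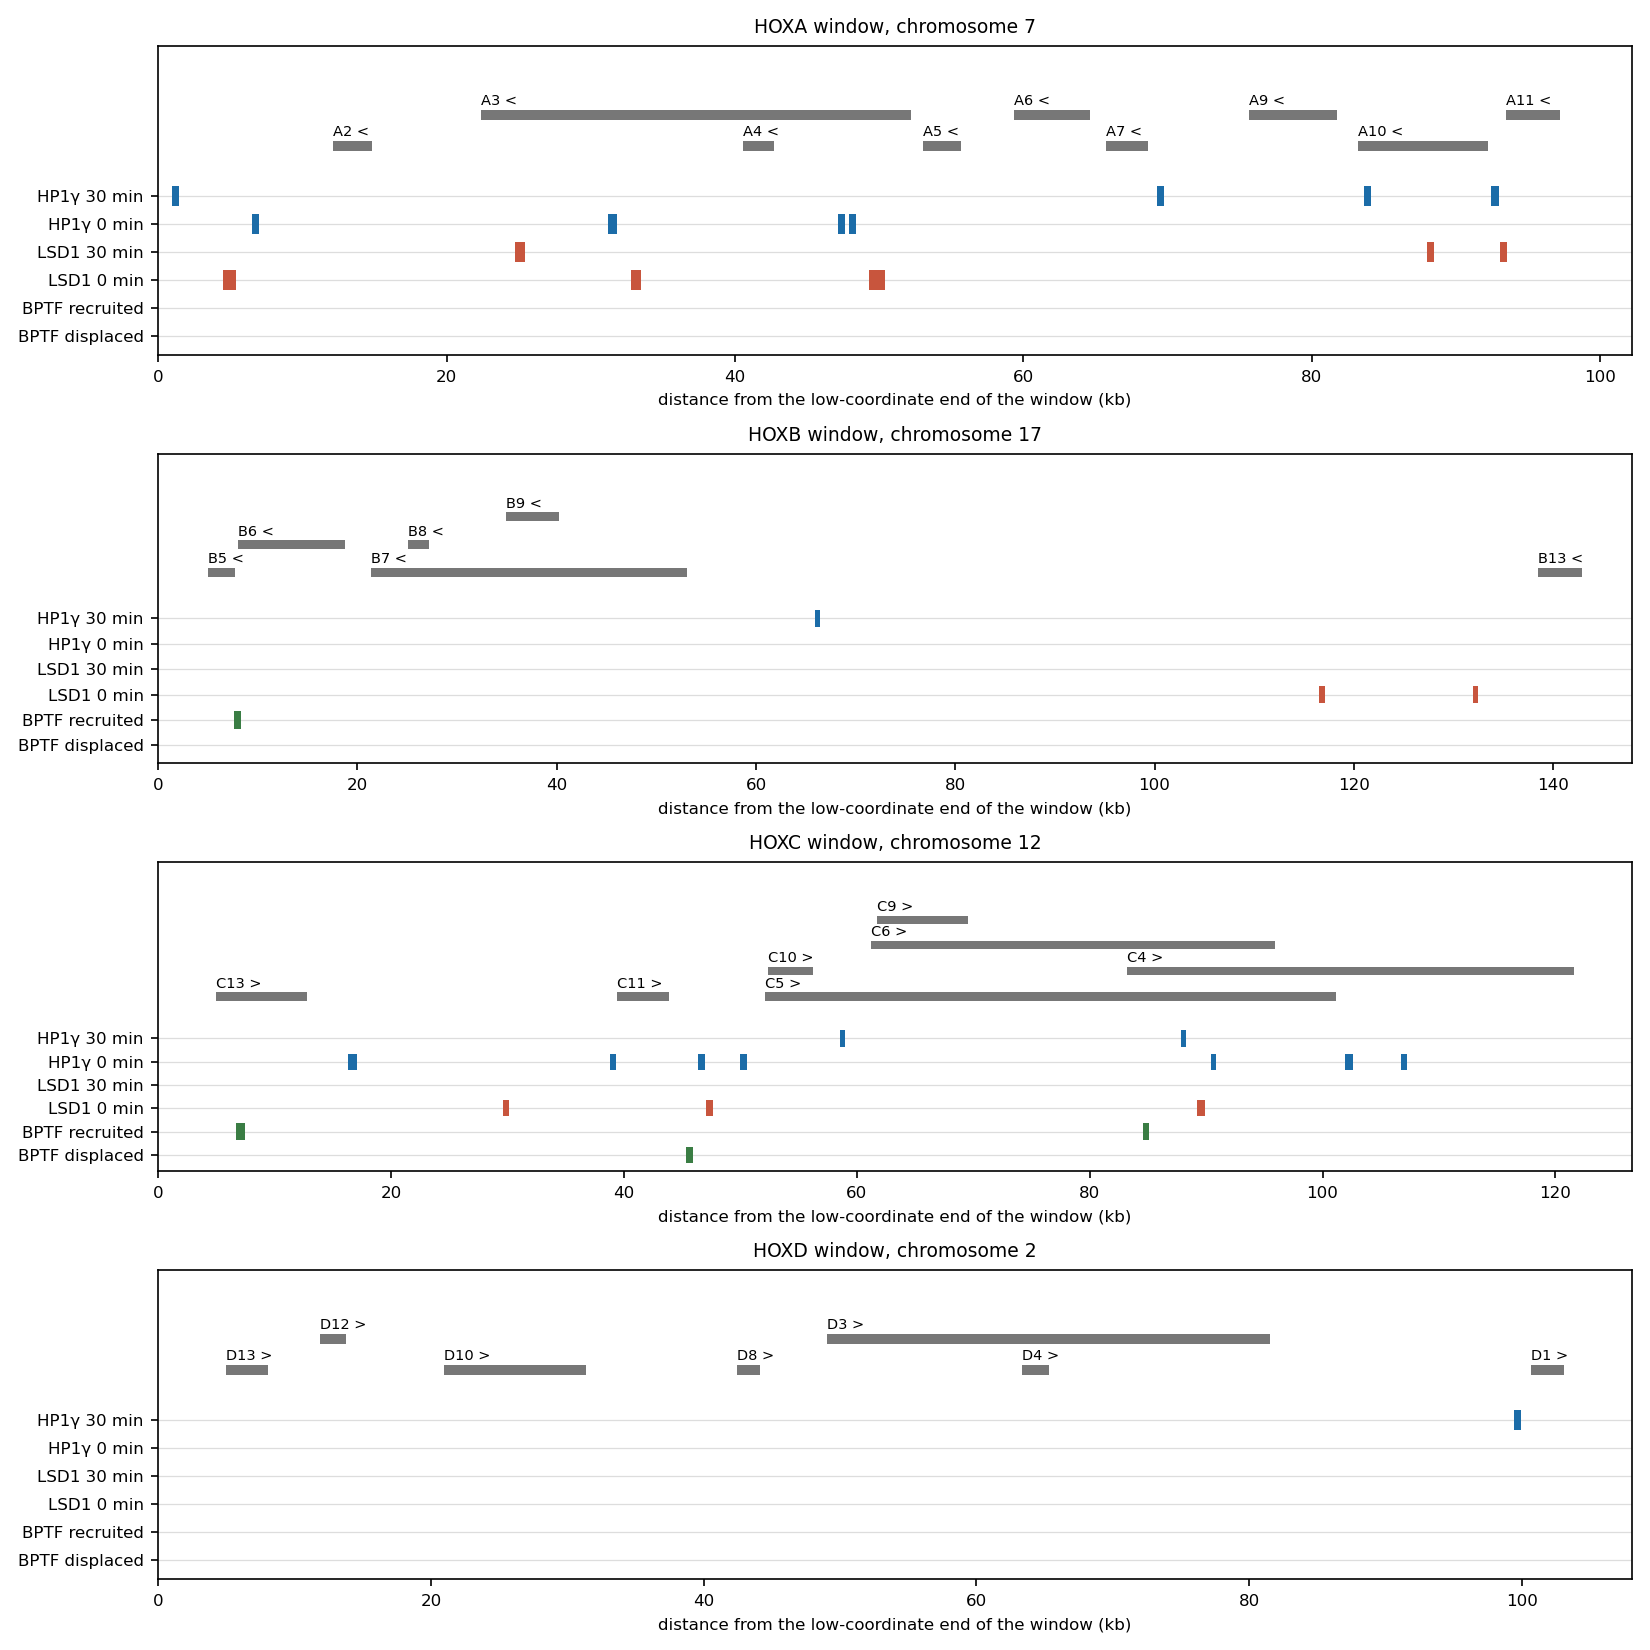
Map of the 4 HOX windows, with distance from the low-coordinate end in kb, 29 of the 30 members as grey bars (strand as an arrowhead) and the deposited positions of each list as coloured bars on their own line. BPTF positions are 1 in HOXB and 3 in HOXC, and HOXD has a single HP1γ peak at 30 min.

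As peaks per Mb over the 4 windows, HP1γ had 16.5 at 30 min (95% exact Poisson interval 7.12 to 32.5) and 22.7 at 0 min (11.3 to 40.6). The genome had 7.70 at 30 min and 10.3 at 0 min. LSD1 had 6.19 per Mb at 30 min (1.28 to 18.1) and 16.5 at 0 min (7.12 to 32.5), where the genome had 6.62 and 11.3 at these times. The chromosomes of HOXA, HOXB and HOXC had more peaks per Mb than the genome in all of these lists, and that of HOXD had fewer. For HP1γ at 0 min they had 15.1, 19.8, 22.6 and 1.46 per Mb, from HOXA to HOXD. The genome is thus an unlike background for these windows. The HOX intervals for 30 and 0 min overlap for both proteins. Overlap of intervals does not decide whether the times differ, and that difference was not tested.

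**Figure D5:**
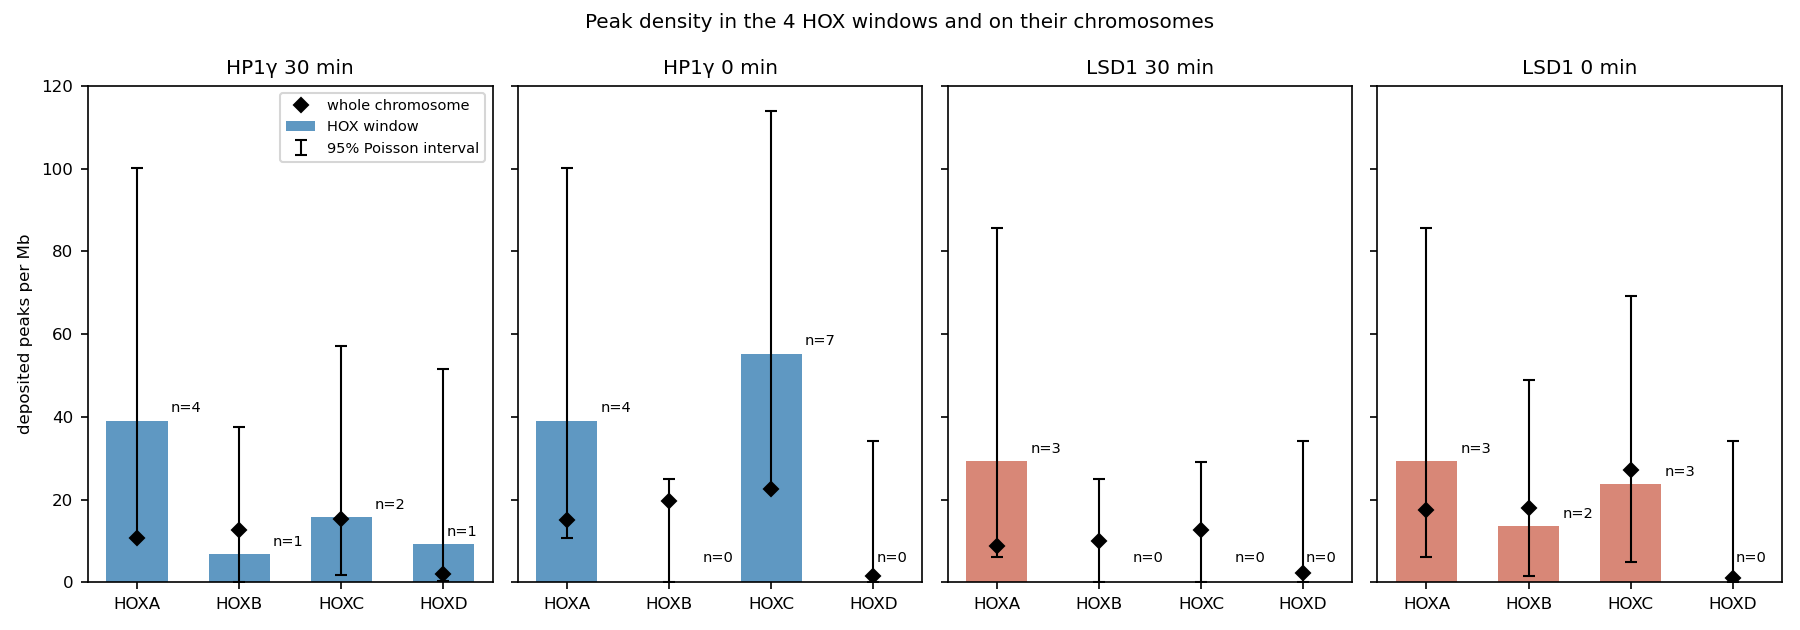
Deposited HP1γ and LSD1 peaks per Mb in each HOX window (bars, with the number of peaks and 95% exact Poisson intervals) and on the whole chromosome (diamonds), at 30 min and 0 min. HOXA and HOXC hold most of the peaks, HOXD holds 1, and every interval shown takes in the density of its chromosome.

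BPTF was recruited at 3 positions in the clusters. The position at HOXB5 and HOXB6, chr17:46671233-46671929, has its centre 440 bp from the HOXB5 start, between the adjoining ends of the spans of both genes, and lies in introns of HOXB3 and of the antisense RNA HOXB-AS3 in GENCODE 44. The position at chr12:54334202-54334971 is in an intron of HOXC13, 1971 bp from its start. The position at chr12:54412089-54412658 is intronic in HOXC4 and HOXC6, 1658 bp from the nearest HOXC4 start, within the span of HOXC5 as well. All 3 were GC-richer, at 54.7%, 47.5% and 59.3%, than the median recruited position at 44.1%. Within 1 kb of a protein-coding start lay 1 of these 3 and 6.44% of all recruited positions.

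With gene bodies plus 5 kb, 6 of 30 members had a recruited BPTF position, beside 5.3% of all genes. These were HOXB5, HOXB6, HOXC4, HOXC5, HOXC6 and HOXC13, and they share the 3 positions, so they are not 6 separate events. HOXC11 alone had a displaced position, beside 9.14% of all genes. The recruited positions were 1 of the 107 on chromosome 17 and 2 of the 147 on chromosome 12. In the HOXC window 2 positions make 15.8 per Mb with an interval of 1.91 to 57.1, against 1.098 per Mb on chromosome 12. That density rests on 2 positions, and its difference from the chromosome was not tested. In the HOXB window 1 position makes 6.76 per Mb with an interval of 0.171 to 37.7, which takes in the 1.32 per Mb of chromosome 17, and HOXA and HOXD had 0 recruited positions. The H2A changes at 30 min of the genes that share these positions were -0.17 for HOXB5, -0.34 for HOXB6, -0.31 for HOXC4, -0.31 for HOXC5, -0.31 for HOXC6 and -0.06 for HOXC13. Their median was -0.31, against -0.25 for the 24 members with none. These medians are not corrected for GC content, and HOXC4, HOXC5 and HOXC6 share reads. The difference was not tested.

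The stretch between HOXC11 and HOXC10 held 3 lists' positions close together in unstimulated cells. The displaced BPTF position, chr12:54372839-54373441, was 416 bp from an HP1γ peak at 0 min, chr12:54373857-54374504. An LSD1 peak at 0 min, chr12:54374610-54375152, began 106 bp beyond the HP1γ peak and 1169 bp from the BPTF position. None of the 3 overlaps an annotated gene of GENCODE 44, and none was matched there by a peak at 30 min of HP1γ, LSD1 or recruited BPTF. The HP1γ peak had a score of 48.69, and 11.95% of its list scored higher. The nearest protein-coding start was HOXC10, at 3968 to 5709 bp.

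HOTAIR, which lies between HOXC12 and HOXC11, carried an HP1γ peak at 0 min over exonic sequence, chr12:54366333-54366770, with its centre 359 bp from the HOXC11 start. An LSD1 peak at 0 min, chr12:54357142-54357626, also overlapped HOTAIR exonic sequence. The HP1γ peak scored 30.23, where 97.2% of its list scored higher, and the LSD1 peak scored 34.89, where 57.8% did. Neither HOTAIR position had a peak at 30 min.

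In HOXC as a whole, HP1γ had 2 peaks at 30 min and 7 at 0 min, and LSD1 had 0 at 30 min and 3 at 0 min. The 2 HP1γ peaks at 30 min lay 1881 bp from the HOXC6 start, with a score of 50.79, and 4817 bp from the HOXC4 start, with a score of 32.83. In the 0 min libraries, HP1γ lay between HOXC13 and HOXC12, over HOTAIR, between HOXC11 and HOXC10, beside the HOXC10 start (1046 bp) and 3 times in the HOXC4 span. An LSD1 peak at 0 min of score 46.14 lay 6392 bp from the HOXC4 start. The Poisson interval of 7 HP1γ peaks is 2.81 to 14.4 and that of 2 is 0.242 to 7.22. The intervals overlap, which does not decide whether the times differ, and the difference was not tested.

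In HOXA, HP1γ had 4 peaks at 30 min and 4 at 0 min, and LSD1 had 3 at 30 min and 3 at 0 min, none of them at the same place at both times. At 30 min, 3 of the HP1γ peaks lay 468 bp from the HOXA7 start, in HOXA10 exonic sequence and 453 bp from the HOXA10 start. At 0 min, 3 of them lay in the span of HOXA3. LSD1 peaks at 30 min lay in HOXA3, in HOXA10 and at HOXA11, and 2 of those at 0 min lay in HOXA3. The peaks from HOXA7 to HOXA11, the central and posterior genes at that end, were thus all in the 30 min lists, 3 of HP1γ and 2 of LSD1, and those within the span of HOXA3 were 1 at 30 min (LSD1) and 5 at 0 min. This split was noticed after the values were seen, and with 1 library per time it was not tested.

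Among the HOXA positions described here, high scores were found in HOXA3. HP1γ at 0 min scored 59.56 in HOXA3, chr7:27158816-27159410, and 4.19% of its list scored higher. LSD1 at 30 min scored 54.74 in HOXA3, chr7:27152329-27153034, and 4.68% of its list scored higher. At the posterior end the HP1γ peak at 30 min between HOXA10 and HOXA11, chr7:27220061-27220606, scored 44.42 and lay 94 bp from an LSD1 peak of the same time, chr7:27220700-27221129, at HOXA11.

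HOXB and HOXD held few peaks. HOXB had 1 HP1γ peak at 30 min and 0 at 0 min, and LSD1 had 0 at 30 min and 2 at 0 min, all of them in the gap between the HOXB7 span and HOXB13, at 4138 bp or more from the nearest protein-coding start. HOXD had 1 HP1γ peak, at 30 min, 1146 bp from the HOXD1 start, with a score of 30.76 that 98.2% of its list exceeded. HOXD had none of the other lists, and a count of 0 in its window allows up to 34.1 peaks per Mb. Chromosome 2 was poor in peaks as a whole, at 2.08 HP1γ peaks per Mb at 30 min and 1.46 at 0 min, and at 2.18 LSD1 peaks per Mb at 30 min and 1.09 at 0 min. HOXD4 and HOXD12, the members with the lowest H2A change, had no position of any list within 5 kb.

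No position in the clusters overlapped a position of another list or time by 1 bp or more. Such overlap was uncommon over the genome too, at 5.76% of HP1γ peaks at 30 min with HP1γ at 0 min, and 6.38% of LSD1 peaks at 30 min with LSD1 at 0 min. HP1γ and LSD1 peaks at 0 min were within 1 kb of each other at 4 of 11 HP1γ peaks (14.3% over the genome) and 4 of 8 LSD1 peaks (13.2%). At 30 min this was so for 1 of 8 HP1γ peaks (6.73% over the genome) and 1 of 3 LSD1 peaks (7.78%). HP1γ peaks of 30 min and 0 min came no closer than 2203 bp, and LSD1 peaks of 30 min and 0 min no closer than 7353 bp.

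Counted over gene bodies plus 5 kb, 12 of 30 members had an HP1γ peak at 30 min (25.7% of all genes) and 10 at 0 min (29.9%). For LSD1, 3 members had a peak at 30 min (24.5% of all genes) and 8 at 0 min (26.1%). Members are short, with a median of 4467 bp against 21869.5 bp over all genes, so fewer peaks would fall on them at an equal density. By chromosome, the share of all genes with an HP1γ peak at 30 min was 31.4% (7), 28.4% (17), 41.5% (12) and 15.3% (2). The members with an HP1γ peak at 30 min were 6 in HOXA, 5 in HOXC and HOXD1. Neighbouring members share peaks, and the 5 in HOXC share 2, so the members counted are not separate events. In 11 members no list had a position: HOXA2, HOXB7, HOXB8, HOXB9, HOXB13, HOXD3, HOXD4, HOXD8, HOXD10, HOXD12 and HOXD13. The share of all genes with no position in any list is not given here, so that count is not read as a trait of the members. The median H2A change at 30 min was -0.29 for the members with an HP1γ peak at 30 min and -0.23 for those without. For LSD1 at 30 min it was -0.18 with a peak and -0.26 without. Members in these groups share peaks and in part reads, and the differences were not tested.

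The peaks in the clusters were GC-rich for their lists. At 30 min 6 of 8 HP1γ peaks lay above the median GC content of their list, and at 0 min 10 of 11 did. For LSD1 it was 3 of 3 at 30 min and 8 of 8 at 0 min. Whether base composition bears on where peaks were called in the clusters was not tested.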

How the data were processed

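The deposited H2A table gives RPKM per gene, made by the authors with HOMER over GENCODE 18 on both strands, per the file headers. Bowtie 1.0.0, HOMER 4.7.2 and the build hg19 (GRCh37) come from the submitters' processing notes. Each deposited HP1γ and LSD1 peak has a score (lowest 30), and the deposited BPTF lists give positions only. No source used here gives the peak caller, a control, the definition of the score or the criterion for a recruited or displaced position. BPTF starts were taken as counted from 0, as in BED. No input library was analysed here.

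For 19709 genes averaging at least 0.1 RPKM, the change was the log2 ratio of RPKM plus 0.05; this pseudocount makes changes of low genes smaller. Genes past 0.5 either way were counted as called. Depth was recovered from single-read steps (all of 18 values whole within 0.02). Counting errors came from those reads, also divided by the transcripts of GENCODE 44 lifted to GRCh37. The GC trend was a lowess (fraction 0.3) on the GC content of the gene's span. Peaks had to overlap by at least 1 bp. Statistics were checked on simulated data. Python 3.11.15, pandas 2.3.3, numpy 2.4.6, scipy 1.17.1, statsmodels 0.14.6 and matplotlib 3.10.9 were used.

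Groups were taken from the titles (antibody and time), with 1 library in each group, so no p-value was computed. Every member may be named, but values of 1 member are not reported here. Values in all 3 libraries were to be given for the highest and lowest change of each cluster, members past 0.5, paralogs 1, 4, 9, 10 and 13, and members with a position. Members, gene lists and windows were chosen with earlier results of these data known. Alternatives are given in the closing section.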

Additional observations from a re-analysis of the deposited data

How the results depend on the processing

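No paired analysis was possible because each antibody and time has 1 library and the labels carry no replicate numbers, so no library could be left out either. Taking the GC trend off moved the members' median to 0.024 at 30 min over 0 min, to 0.019 at 60 min over 0 min and to -0.0044 at 60 over 30 min, a reversed sign in each, with 40.0%, 46.7% and 53.3% of members lower. The cause was not tested. Centring on the median of all genes gave medians of -0.12, -0.076 and 0.056, with 30.0% lower at 60 over 30 min, and a pseudocount of 0.5 gave -0.20, -0.074 and 0.11. Members lower past the threshold, 2 at 30 min and 1 at 60 min, were 0 and 0 with a pseudocount of 0.5, a mean of at least 1 RPKM (which leaves out HOXD4 and HOXD12) or the GC trend taken off, and 12 and 3 at a threshold of 0.3 (18.5% and 3.81% of all genes). Higher past the threshold at 60 over 30 min was 1 member with a pseudocount of 0.01 and 3 at a threshold of 0.3 (4.39% of all genes). A score of at least 50 left 1 HP1γ peak at 30 min and 1 at 0 min, and 1 LSD1 peak at 30 min and 2 at 0 min, with 4, 1, 1 and 3 members holding them. Windows widened by 50 kb held 6 LSD1 peaks at 30 min and 14 at 0 min, and 3 displaced BPTF positions. Gene bodies alone left 4 members with HP1γ at 30 min, 5 at 0 min, 5 with LSD1 at 0 min and 0 with displaced BPTF, and 10 kb on each side gave 5 with LSD1 at 30 min and 3 with displaced BPTF. The shares of all genes with a peak at these score and flank settings are not given here, so the member counts have no background beside them. Chosen after seeing the data, the 17 members that overlap no other HOX gene had a median of -0.21 at 30 min with 1 past the threshold, all 39 HOX genes had a median of 0.17 at 60 over 30 min, and windows from all 39 genes held 2 displaced BPTF positions. Single members turned sign with the GC trend taken off (17 at 30 min over 0 min, 14 at 60 min over 0 min and 12 at 60 over 30 min). Centring turned HOXA2, HOXC13 and HOXD10 at 30 min over 0 min (to 0.0003, 0.082 and 0.078), HOXB8 at 60 min over 0 min and 5 members at 60 over 30 min, and the pseudocounts and filters turned none. The other medians, shares and counts summed over the 4 clusters kept their direction, or their size within 1.5 times. Counting error limits HOXD4, HOXD8 and HOXD12 most.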

Other observations

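HOXB1, HOXB2, HOXB4 and most of HOXB3 lie outside the HOXB window, because those genes are listed by identifier only. That stretch held a displaced BPTF position within HOXB3, chr17:46642013-46642617, and an HP1γ peak at 30 min at HOXB2, chr17:46622507-46623121, with a score of 45.86. Between HOXB1 and HOXB2 it held an LSD1 peak at 30 min, chr17:46613188-46613660, with a score of 36.13, and an LSD1 peak at 0 min, chr17:46610527-46611049, with a score of 35.94. HOXB2 had 2.130, 2.074 and 2.352 RPKM of H2A at 0, 30 and 60 min. With the GC trend taken off, HOXB2 stood at 0.25 at 30 min over 0 min and at 0.27 at 60 min over 0 min, the highest of the 39 HOX genes in both comparisons. These genes were named after their values were seen.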
